A study of Mus musculus with 14 samples.

Results

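The regions described here are sites of H3K4me1, the monomethyl mark of histone H3 lysine 4, that carried no called peak of the trimethyl mark H3K4me3 in untreated mouse embryonic stem cells but did so in cells given 4-hydroxytamoxifen (4-OHT) to delete Mll1. They were chosen as peaks of the 4-OHT H3K4me3 list with at least 50 tags that overlapped no untreated H3K4me3 peak and overlapped an untreated H3K4me1 peak by at least 1 bp. The rule found 2656 members among 40966 peaks of at least 50 tags, and among 56419 peaks in all. Members were thus selected on H3K4me3 in 4-OHT and untreated cells and on untreated H3K4me1, and these values are given only as a description.

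The study mapped H3K4me1, H3K4me2 and H3K4me3 by chromatin immunoprecipitation and sequencing in 3 conditions, with 1 library per mark and condition, and Mll1 in untreated cells alone. The first condition is cells given 5 µM 4-OHT for 9 days, or 3 passages. The second is cells given 100 µM MM-401, an inhibitor of MLL1, for the same time, and the third is untreated cells. All 3 were blastocyst-derived C57BL/6J stem cells with the genotype Mll1fl/fl; Cre-ER TM, grown on Matrigel without feeders in medium with LIF, 5% serum and 15% KSR. Untreated and MM-401 cells thus also carried the floxed alleles and the inducible Cre recombinase. Mll1 was not mapped after 4-OHT, so its deletion was not measured in these files, and no cells without the Cre were given 4-OHT.

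Mll1, also called Kmt2a, is a methyltransferase of histone H3 lysine 4 and one of several in mammals. H3K4me1 marks enhancers and the flanks of active gene starts, H3K4me2 both, and H3K4me3 chiefly gene starts, above all those rich in CpG dinucleotides. CpG-rich starts are bound by the related SET1 and MLL complexes through proteins that recognise unmethylated CpG, while MLL3 and MLL4 place most H3K4me1 at enhancers.

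An annotated transcription start lay wholly inside few members, and the letters around such starts show how they compare with the usual H3K4me3-marked start. The RefSeq table of windows from 250 bases before to 50 after each start (GRCm38.p6) placed 63 starts of 58 genes inside 57 members. The 3 protein-coding ones in the members with the most tags are shown, with an upstream start of Slc20a1 that lay in an H3K4me3 peak present in both 4-OHT and untreated cells. CG dinucleotides are in capitals.
Slc20a1, start inside a member, chr2:129206846-129207145, plus strand: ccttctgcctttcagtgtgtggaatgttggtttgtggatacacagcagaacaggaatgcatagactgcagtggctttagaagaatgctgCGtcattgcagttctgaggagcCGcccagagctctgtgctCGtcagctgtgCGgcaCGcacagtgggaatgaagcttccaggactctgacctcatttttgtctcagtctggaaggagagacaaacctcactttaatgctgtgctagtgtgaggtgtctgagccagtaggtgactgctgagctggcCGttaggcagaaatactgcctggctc
Dido1, start inside a member, chr2:180691999-180692298, minus strand: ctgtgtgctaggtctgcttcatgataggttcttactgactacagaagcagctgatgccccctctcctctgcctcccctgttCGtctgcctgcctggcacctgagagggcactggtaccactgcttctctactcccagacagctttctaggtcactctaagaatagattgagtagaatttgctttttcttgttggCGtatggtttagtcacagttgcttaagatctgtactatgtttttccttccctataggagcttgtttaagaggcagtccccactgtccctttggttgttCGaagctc
Ctbp2, start inside a member, chr7:133015198-133015497, minus strand: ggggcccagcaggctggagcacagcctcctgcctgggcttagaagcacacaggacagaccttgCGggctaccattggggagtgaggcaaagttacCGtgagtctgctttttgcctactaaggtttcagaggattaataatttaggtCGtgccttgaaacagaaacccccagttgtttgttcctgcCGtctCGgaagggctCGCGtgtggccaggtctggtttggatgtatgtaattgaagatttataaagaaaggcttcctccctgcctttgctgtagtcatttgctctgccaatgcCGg
Slc20a1, start inside a kept peak, chr2:129198523-129198822, plus strand: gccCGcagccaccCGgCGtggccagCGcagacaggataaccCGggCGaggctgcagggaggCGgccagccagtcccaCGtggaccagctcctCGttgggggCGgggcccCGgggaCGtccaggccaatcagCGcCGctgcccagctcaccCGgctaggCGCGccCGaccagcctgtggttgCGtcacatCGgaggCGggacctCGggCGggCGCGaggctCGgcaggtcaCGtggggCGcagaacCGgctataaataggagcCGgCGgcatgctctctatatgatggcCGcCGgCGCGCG

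The Slc20a1 start in a member held 6 CG dinucleotides, against 36 in the upstream start of the same gene. The kept peak of that upstream start, chr2:129196542-129203383, had 110 tags per M of H3K4me3 after 4-OHT. The member lay right beside it, at chr2:129203498-129209524, with 13.7 tags per M. The Dido1 start held 3 and the Ctbp2 start 8. Over the 63 starts in members, the median ratio of observed to expected CpG was 0.25 (95% interval 0.21 to 0.30), and 1.59% reached 0.6 (exact interval 0.0402% to 8.53%). Over 16173 starts in kept 4-OHT peaks the median was 0.75, and 69.6% reached 0.6. Over 2592 starts on untreated H3K4me1 without H3K4me3 the median was 0.22, and 1.89% reached 0.6. The median of starts in members lay near that of starts on H3K4me1 alone and far below that of kept peaks. By the rule members lacked untreated H3K4me3, while every kept peak carried it, so these comparisons are a description. Of the 63 starts, 24 belonged to protein-coding genes and 39 to long noncoding RNAs. Slc20a1 encodes a sodium-phosphate transporter, Dido1 a chromatin-associated protein and Ctbp2 a transcriptional corepressor.

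Precipitated libraries held 12.9 to 61.8 M filtered tags (M, 1000000 tags). For H3K4me3 they held 26.4 M in 4-OHT cells, 12.9 M in MM-401 cells and 25.3 M in untreated cells, and the inputs held 55.0 M for 4-OHT, 12.2 M for MM-401 and 36.6 M for untreated cells. The share of H3K4me3 tags inside peaks was 87.5% after 4-OHT, 85.6% after MM-401 and 82.5% in untreated cells, and the redundant rate was 0.67 after 4-OHT, 0.42 after MM-401 and 0.60 in untreated cells. The part of these differences in the results was not tested. With 1 library per group no difference has a replicate check and no p-value is given. Intervals cover counting error only, and a region with no peak is not a region with no signal, since tags outside peaks were not used here. A culture in which fewer cells carry a mark cannot be told apart from one in which each site carries less of it. H3K4me3 lay within 1 kb of an end of 14 of 14 core pluripotency genes after 4-OHT, after MM-401 and in untreated cells. It also lay there at 14 of 14 neuroectoderm genes in each condition. The counts were lower for blood and endothelium, at 7 of 12, and for fibroblast and mesenchyme, at 5 of 10, in each condition. For primitive endoderm they were 8 of 12 after 4-OHT and in untreated cells and 7 of 12 after MM-401. Since the neuroectoderm list was marked as fully as the core list, these marks alone do not identify the cell type.

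Members made up 6.48% of the 4-OHT H3K4me3 peaks of at least 50 tags. The same rule turned round, for untreated H3K4me3 peaks of at least 50 tags with no 4-OHT H3K4me3 peak but with 4-OHT H3K4me1, found 332 of 38391 peaks, or 0.865%. These mirror peaks are called lost sites below. The rule applied to MM-401 H3K4me3 found 8 of 22134 peaks, or 0.0361%. The last value is set by the least number of tags as well as by the mark, because 50 tags in the 4-OHT library equal 24.5 in the MM-401 library per filtered tag. All but 91 of the new 4-OHT peaks of at least 50 tags lay on untreated H3K4me1.

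Members were weak H3K4me3 peaks. They held 50 to 1224 tags with a median of 67.5, or 2.56 tags per M filtered tags, over a median width of 1476 bp. The other 4-OHT peaks of at least 50 tags held a median of 206 tags over 1762 bp, and the lost sites held a median of 56 tags and at most 111. Of the members 521 held at least 100 tags and 74 at least 200. At the threshold, 105 members held exactly 50 tags, such as those nearest to Emp2, Lrrc20 and Siah1b, with a median score of 104 (10 times the negative log10 of the caller's p). Just outside it, 107 new peaks on H3K4me1 held 49 tags, such as those nearest to Itpr3, Mtm1 and Dock6, with a median score of 103. Peaks on the 2 sides of the threshold were also alike in median width, at 1173 and 1177 bp.

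The member with the most tags lay 450 bp from Elobl, an elongin B-like gene, and had 46.3 tags per M of H3K4me3 after 4-OHT and no MM-401 or untreated H3K4me3 peak. Its other marks went against those of nearly all members. H3K4me2 there had no 4-OHT peak, against 53.3 tags per M after MM-401 and 31.0 in untreated cells, and H3K4me1 had no 4-OHT peak, against 44.7 after MM-401 and 30.4 in untreated cells. The region held 510 tags of Mll1 peaks in untreated cells. Mll1 tags were also high at the members nearest to Stmn2 (396 tags) and Fbxw4 (211 tags), while the other 81 members on Mll1 peaks held at most 23. Enrichment over the local background was 7.51-fold at Elobl, 4.6-fold at Stmn2 and 4.45-fold at Fbxw4, against a median of 6.97-fold over all members. These 3 regions stand apart in the Mll1 library. Their 4-OHT H3K4me3 was also dense, at 305 tags per kb at Elobl, 213 at Stmn2 and 237 at Fbxw4, against a median of 47.0. No list of regions prone to artefact signal was applied, and whether these are such regions was not tested. Without them the share of all members under MM-401 H3K4me3, under Mll1 or at a gene end moved by less than its interval. So did the share within 5 kb of untreated H3K4me3 and the median H3K4me2 and H3K4me1 ratios after 4-OHT. Lists of genes and classes of distance were not recomputed without them.

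Nop58, which encodes a core protein of box C/D small nucleolar ribonucleoproteins, held the member with the next most tags, chr1:59692806-59699552, inside the gene body. H3K4me3 there reached 22.8 tags per M after 4-OHT and 6.27 after MM-401, with no peak in untreated cells. H3K4me2 reached 44.7 tags per M after 4-OHT and 53.1 after MM-401, against 17.5 in untreated cells. H3K4me1 reached 17.6 after 4-OHT and 27.3 after MM-401, against 22.4 in untreated cells. At this site both treatments showed H3K4me3 and more H3K4me2, while H3K4me1 was lower after 4-OHT and higher after MM-401.

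Dse, the dermatan sulfate epimerase gene, and Ncor1, which encodes a corepressor of nuclear receptors, held or neighboured the next members. The member 20438 bp from Dse had 20.4 tags per M of H3K4me3 after 4-OHT and no MM-401 or untreated peak. H3K4me2 there was 26.8 tags per M after 4-OHT and 17.8 after MM-401, against 16.1 in untreated cells. The member inside Ncor1 had 20.3 tags per M of H3K4me3 after 4-OHT and likewise no other H3K4me3 peak. H3K4me2 there was 36.0 after 4-OHT and 17.1 after MM-401, against 16.4 in untreated cells. The log2 ratios of H3K4me2 to untreated were 0.74 after 4-OHT and 0.15 after MM-401 at Dse, and 1.13 after 4-OHT and 0.06 after MM-401 at Ncor1. H3K4me1 was 18.8 tags per M after 4-OHT against 19.4 in untreated cells at Dse, and 21.4 after 4-OHT against 22.9 in untreated cells at Ncor1.

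Members in Ppp2ca, Ppp2r2a and Ppp2r2d, which encode a catalytic and 2 regulatory subunits of protein phosphatase 2A, were also among the 25 with the most tags. They are set together here after their values were seen, and no list of this phosphatase's genes was counted. The member in Ppp2ca had 15.9 tags per M of H3K4me3 after 4-OHT, the one in Ppp2r2a 14.4 and the one in Ppp2r2d 11.4. None had an MM-401 H3K4me3 peak. H3K4me2 was 41.9 tags per M after 4-OHT and 35.3 after MM-401 against 32.5 in untreated cells at Ppp2ca. At Ppp2r2a it was 27.0 after 4-OHT and 11.6 after MM-401 against 13.6 in untreated cells. At Ppp2r2d it was 19.5 after 4-OHT and 23.8 after MM-401 against 13.8 in untreated cells. Their H3K4me2 was higher after 4-OHT at all 3, and after MM-401 at Ppp2ca and Ppp2r2d.

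Tdh encodes threonine dehydrogenase, an enzyme that mouse embryonic stem cells express at high level. Its member had 11.3 tags per M of H3K4me3 after 4-OHT and 8.71 after MM-401, with none in untreated cells. H3K4me2 there was 17.8 after 4-OHT and 20.8 after MM-401 against 7.00 in untreated cells. Canx, the gene of the chaperone calnexin, had a member with 14.1 tags per M of H3K4me3 after 4-OHT and no peak after MM-401. H3K4me2 at Canx was nonetheless alike in both treatments, at 34.8 after 4-OHT and 34.3 after MM-401 against 11.6 in untreated cells.

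Over the 25 members with the most tags, 4 had an MM-401 H3K4me3 peak, those at Nop58, Fkbp5, Tdh and Rfc5. H3K4me2 was higher after 4-OHT than in untreated cells at 23 of the 23 that had a peak in both. H3K4me1 was higher after 4-OHT at 10 of 21. Of the 25, 16 lay inside a gene, 17 lay within 5 kb of untreated H3K4me3, and 4 had no 4-OHT H3K4me1 peak. Over all 2656 members, 3.88% had an MM-401 H3K4me3 peak. H3K4me2 was higher after 4-OHT at 87.9% of all members with both, and H3K4me1 at 40.1%. Of all members 1976 lay inside a gene, 57.5% lay within 5 kb of untreated H3K4me3, and 7.00% had no 4-OHT H3K4me1 peak. Fkbp5 encodes a co-chaperone of steroid receptors and Rfc5 a subunit of the clamp loader of DNA replication.

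**Figure D1:**
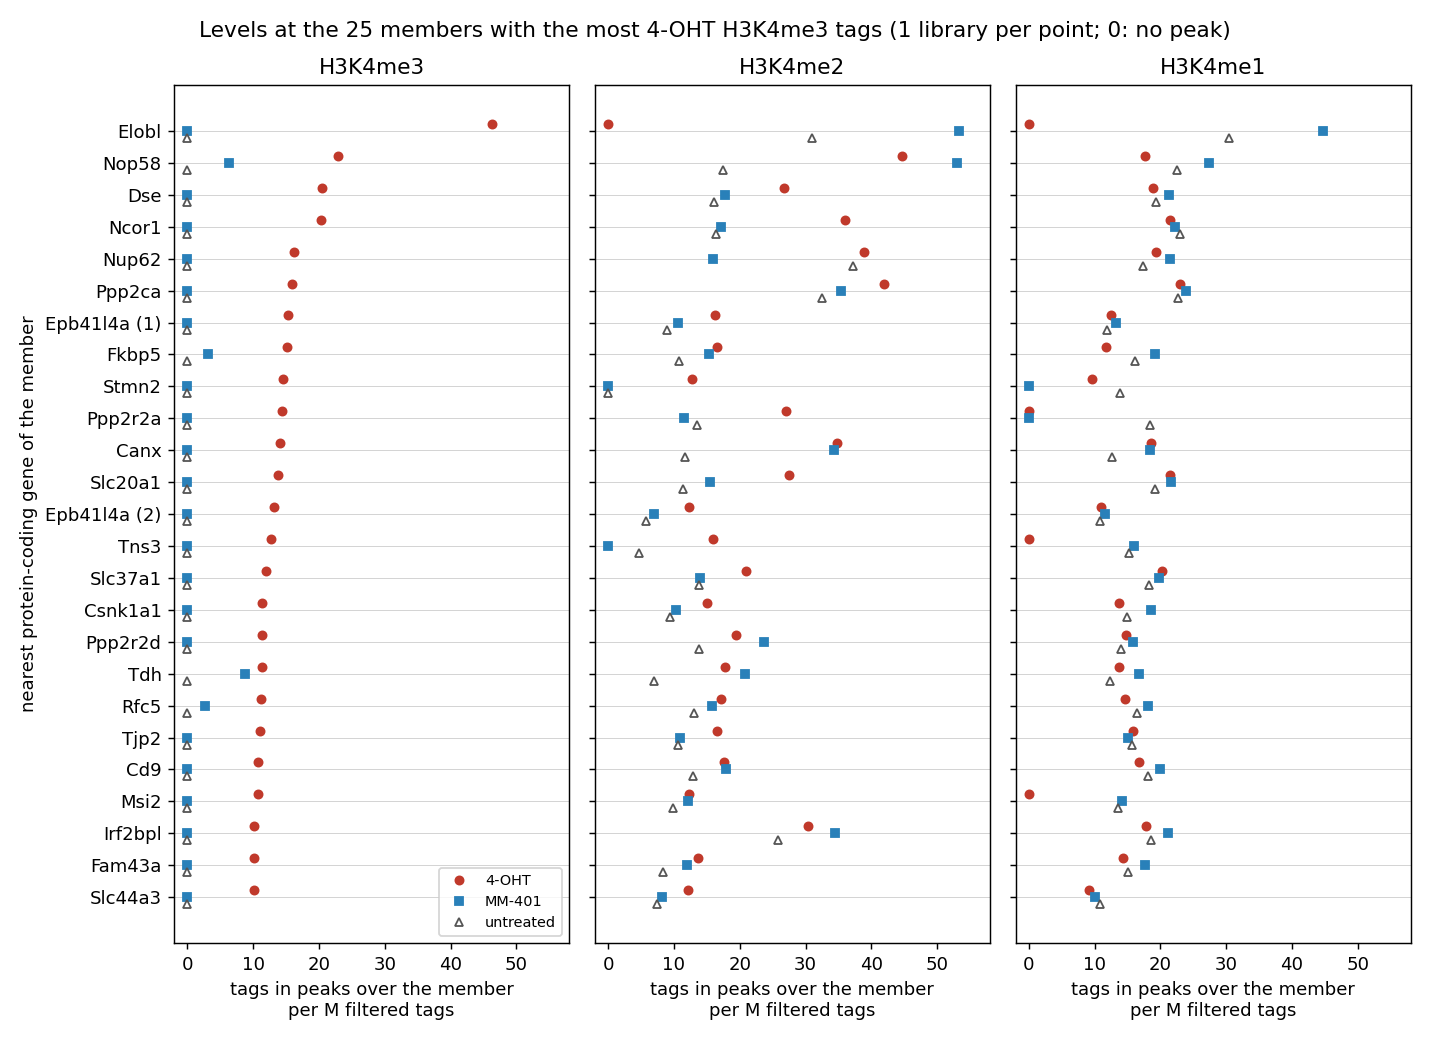
Tags per M filtered tags (x axis) of H3K4me3, H3K4me2 and H3K4me1 in peaks over the 25 members with the most 4-OHT H3K4me3 tags, each point 1 library, with 0 where the list holds no peak. Untreated H3K4me3 is at 0 by the rule, 4-OHT H3K4me2 lies right of untreated at the 23 members with both, and 4-OHT H3K4me1 is at 0 for 4 members and lies right of untreated at 10 of the other 21.

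H3K4me2 took no part in the choice of members, and it was higher at them after 4-OHT. Of 2656 members, 2654 had an H3K4me2 peak after 4-OHT, 2360 after MM-401 and 2628 in untreated cells. Median levels over members with a peak were 4.83 tags per M after 4-OHT, 3.90 after MM-401 and 3.44 in untreated cells. Among the 2626 members with a peak in both, the median log2 ratio of 4-OHT to untreated was 0.35 (95% interval 0.34 to 0.37), and 2307, or 87.9%, were higher after 4-OHT. The ratio was over 1.5-fold higher at 754 members, or 28.7% (exact interval 27.0% to 30.5%), against 1.66% of the other 4-OHT peaks of at least 50 tags. It was over 1.5-fold lower at 5 members, or 0.190%, against 1.23%. The median over kept 4-OHT peaks on H3K4me1 was -0.04. Counting all tags of each overlapping H3K4me2 peak, in place of the part over the member, gave a median of 0.80 over members. Members under 1 wide peak share its density, so their levels and ratios are not separate local measurements. The interval of the median counts each member alone, though 545 members shared an untreated H3K4me1 peak with another.

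The ratio was larger in members with more H3K4me3. Its median was 0.32 for members of 50 to 74 tags, 0.37 for 75 to 99, 0.44 for 100 to under 150, 0.52 for 150 to under 200 and 0.62 for 200 or more. Over kept peaks of the same classes it stayed between -0.05 and -0.01. The lost sites showed the opposite sign, with a median of -0.28 (95% interval -0.31 to -0.25) and 41 of 332 higher after 4-OHT. H3K4me1 at the lost sites was lower after 4-OHT too, with a median of -0.19 and 54 of 322 higher. Over members the H3K4me1 median was -0.05. H3K4me2 thus went with H3K4me3 in both directions of the rule, and the 2 marks shared 1 input library per condition. How far the choice of regions by one mark sets the ratio of the other was not tested.

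After MM-401 the median log2 ratio of H3K4me2 to untreated was 0.13 over members (95% interval 0.12 to 0.15) and 0.12 over kept peaks on H3K4me1. In the class of 50 to 74 tags it was 0.13 over members and -0.10 over kept peaks. Over all classes it was over 1.5-fold higher at 193 of 2351 members, or 8.21%, against 3.12% of the other peaks, and over 1.5-fold lower at 159, or 6.76%, against 3.63%. These ratios leave out members without a peak in 1 of the libraries. The H3K4me2 peak was absent after MM-401 at 277 members, or 10.5% of those with an untreated one, against 1.68% of kept peaks, and it was new at 9 members. In the class of 50 to 74 tags it was absent at 12.4% of members and 8.21% of kept peaks. With absent peaks ranked lowest and new ones highest, the median over members was 0.08. MM-401 libraries held 49.5% of the untreated H3K4me2 tags and were processed in another folder per the file headers, and a batch cannot be told apart from the inhibitor. The 4-OHT and MM-401 ratios also share the untreated library.

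H3K4me1 at members differed little after 4-OHT. Median levels were 4.13 tags per M after 4-OHT, 4.76 after MM-401 and 4.33 in untreated cells. The median log2 ratio of 4-OHT to untreated was -0.05 over 2470 members with both, and -0.06 over kept peaks. It was over 1.5-fold higher at 51 members, or 2.06%, against 1.84% of the other peaks, and over 1.5-fold lower at 12, or 0.486%, against 0.853%. After MM-401 the median was 0.12, with 42 members, or 1.64%, over 1.5-fold higher and as many lower, against 3.32% and 2.64% of the other peaks. Since the rule required untreated H3K4me1, these ratios are a description. They also depend on how tags of wide peaks are shared out: counting all tags of each overlapping peak gave 0.32 for 4-OHT over untreated.

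**Figure D2:**
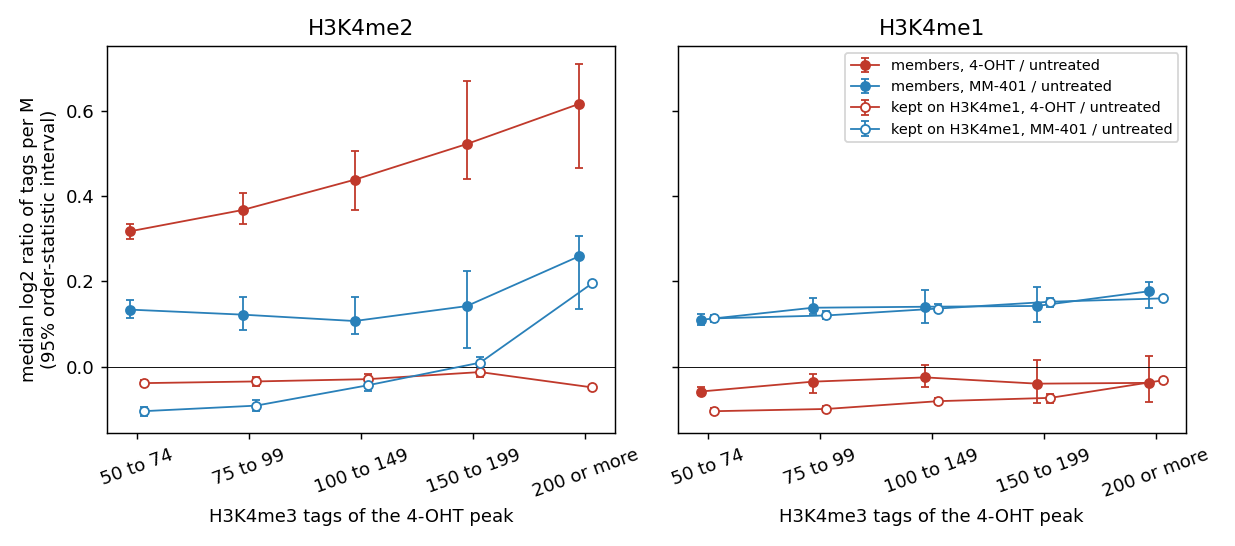
Median log2 ratio of tags per M, treated over untreated, of H3K4me2 and H3K4me1 (y axis) by the number of H3K4me3 tags of the 4-OHT peak (x axis), for members (filled) and kept peaks on H3K4me1 (open), with 95% order-statistic intervals. The 4-OHT H3K4me2 ratio of members lies between 0.32 and 0.62, above all other lines, while the H3K4me1 ratios of members and kept peaks lie close together.

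The peaks of H3K4me2 around members were also wider after 4-OHT. Among 2626 members with both, the overlapping H3K4me2 peak had a median width of 5249 bp after 4-OHT and 2871 bp in untreated cells, and it was wider after 4-OHT at 2422, or 92.2%. Among kept peaks on H3K4me1 of under 200 tags the medians were 2048 bp after 4-OHT and 1991 bp in untreated cells, and 54.1% were wider after 4-OHT. H3K4me1 peaks around members had a median width of 10951 bp after 4-OHT and 6535 bp in untreated cells, and 90.7% were wider after 4-OHT. Of kept peaks under 200 tags, 77.6% had a wider 4-OHT H3K4me1 peak. The 4-OHT libraries held 121% of the untreated tags for H3K4me2 and 167% for H3K4me1, and the part of depth in these widths was not tested.

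H3K4me1 had no 4-OHT peak at 186 members, or 7.00% (exact interval 6.06% to 8.04%), against 1.22% of kept peaks. The share was 5.03% in members of 50 to 74 tags and 16.2% in those of 200 or more, or 15.3% without Elobl and Stmn2. These 186 lay on wide untreated H3K4me1 peaks, with a median of 17731 bp, against 6535 bp for the other members. Their nearest 4-OHT H3K4me1 peak was a median of 14863 bp away, their 4-OHT H3K4me2 peaks were a median of 17518 bp wide against 3969 bp in untreated cells, and 169 of them had an MM-401 H3K4me1 peak. Msi2, Rbpj and Zfp462 held such members. Whether the mark was gone there or a wide domain was not called was not tested.

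Tns3, the gene of the focal adhesion protein tensin 3, was the nearest gene of 13 members, 12 of them inside it, and shows this arrangement. An untreated H3K4me1 peak of 57679 bp, chr11:8551111-8608789, held 8 of them. The lists gave 181 tags per M for that peak in untreated cells, and no 4-OHT H3K4me1 peak between 33.4 kb left and 44.6 kb right of its centre. MM-401 H3K4me1 peaks covered most of the same stretch. A single 4-OHT H3K4me2 peak from 23.8 kb left to 28.6 kb right held 172 tags per M, where untreated cells had separate peaks of 3.57 to 21.7 tags per M. The member with most tags there had 12.7 tags per M of H3K4me3 after 4-OHT and no peak after MM-401 or in untreated cells, and its H3K4me2 was 15.9 tags per M after 4-OHT against 4.64 in untreated cells. H3K4me3 peaks present in both conditions at the locus were higher after 4-OHT too, the one at 40.1 to 47.2 kb reaching 66.6 tags per M after 4-OHT against 41.5 at its place in untreated cells.

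**Figure D3:**
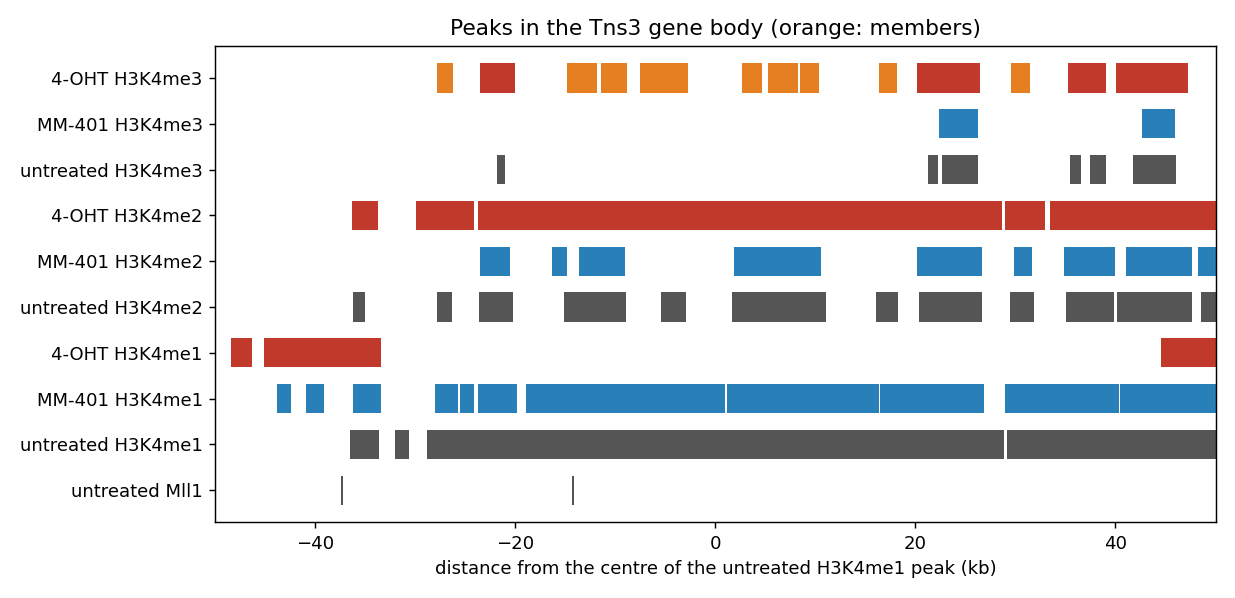
Called peaks (bars) of each mark and condition over 100 kb of the Tns3 gene body, with the x axis in kb from the centre of the untreated H3K4me1 peak that held 8 members and with members in orange. Members fill gaps between H3K4me3 peaks of untreated cells, the 4-OHT H3K4me2 peak runs through them, and the 4-OHT H3K4me1 list has no peak in the middle.

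MM-401 H3K4me3 was rare at members. A peak overlapped 103 of them, or 3.88% (exact interval 3.18% to 4.68%), against 77.9% of the other 4-OHT peaks of at least 50 tags. By the rule members lacked untreated H3K4me3, while nearly all other peaks carried it and every kept peak did. The difference in MM-401 H3K4me3 between them is thus a description, and the classes of tags match the peaks for 4-OHT H3K4me3 alone. Of members with 50 to 74 tags 2.87% had an MM-401 peak, against 24.8% of kept peaks on H3K4me1 in that class. Of members with 200 or more tags 10.8% had one (exact interval 4.78% to 20.2%), against 98.3% of kept peaks. At equal H3K4me3 tags after 4-OHT, the share marked after MM-401 was lower for members than for kept peaks in each of the 5 classes, with exact intervals that do not overlap. The MM-401 library was shallower. Of its H3K4me3 peaks 8.53% lay below 1.89 tags per M, the level of 50 tags in the 4-OHT library, against 25.9% of untreated H3K4me3 peaks, and the part of depth in the MM-401 shares was not tested.

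**Figure D4:**
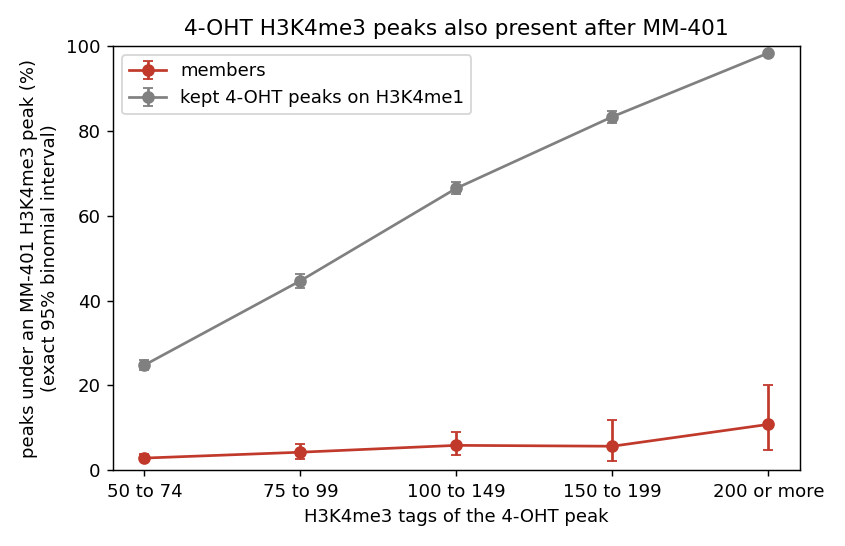
Share of 4-OHT H3K4me3 peaks under an MM-401 H3K4me3 peak (y axis, with exact 95% intervals) by the number of 4-OHT tags (x axis), for members and for kept peaks on H3K4me1. Members run between 2.87% and 10.8%, and kept peaks between 24.8% and 98.3%.

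Among the 103 members with an MM-401 peak, 83 lay under one that overlapped no untreated H3K4me3, and 20 under one that also reached untreated H3K4me3. Their median H3K4me3 level was 3.10 tags per M after 4-OHT and 2.11 after MM-401, and 16 were higher after MM-401. The highest MM-401 levels were at Zbtb41 (2.80 tags per M after 4-OHT and 20.2 after MM-401), Rev1 (3.10 after 4-OHT and 13.6 after MM-401) and Itga6 (3.18 after 4-OHT and 10.9 after MM-401). These members lay 166, 789 and 52 bp from untreated H3K4me3, and their H3K4me2 was close to untreated after 4-OHT, at log2 ratios of -0.07, -0.16 and -0.04 for these 3 members. Zbtb41 encodes a zinc finger protein, Rev1 a DNA polymerase of translesion synthesis and Itga6 an integrin subunit. Their H3K4me3 thus adjoined regions already marked in untreated cells. The 4-OHT level is that of the member's own peak, while the MM-401 level is a share by length of a peak that can reach past the member. A higher MM-401 level, at these 3 or over the 16, thus need not be signal at the member itself.

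Members lay mostly inside genes and away from their ends. Within 1 kb of an end of a protein-coding gene lay 4.89% of them (exact interval 4.11% to 5.79%), against 41.5% of kept peaks on H3K4me1 and 5.48% of untreated H3K4me1 peaks without H3K4me3. Gene bodies held 70.5% of members, against 32.7% of kept peaks and 50.5% of those H3K4me1 peaks. Kept peaks carried untreated H3K4me3 by definition and members lacked it by the rule, so the contrast with kept peaks is a description. Between genes lay 24.6% of members, against 25.7% of kept peaks, 44.0% of those H3K4me1 peaks and 50.9% of lost sites. Of the chromosomes with members, X had the lowest share of its 4-OHT peaks in members, at 2.25% (exact interval 1.41% to 3.38%), and the autosomes ran from 5.14% to 8.85%.

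Many members flanked H3K4me3 that was already present. The nearest untreated H3K4me3 peak was a median of 3834 bp away, against 10636 bp for untreated H3K4me1 peaks without H3K4me3. Within 5 kb of one lay 57.5% of members (exact interval 55.5% to 59.3%) and 28.6% of such H3K4me1 peaks, while 226 members lay 20 kb or more away. Such H3K4me1 peaks touch no H3K4me3 in either condition. Of the 2352 H3K4me1 peaks under members, 1061 overlapped untreated H3K4me3. Part of the difference in distance thus follows from how the 2 sets were built, and it is a description. The median H3K4me2 ratio was lowest in the nearest class. It was 0.24 for the 438 members under 1 kb from untreated H3K4me3, 0.41 from 1 to 5 kb, 0.35 from 5 to 20 kb and 0.32 beyond. MM-401 H3K4me3 lay over 7.31%, 3.68%, 2.65% and 3.10% of members in the same 4 classes.

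**Figure D5:**
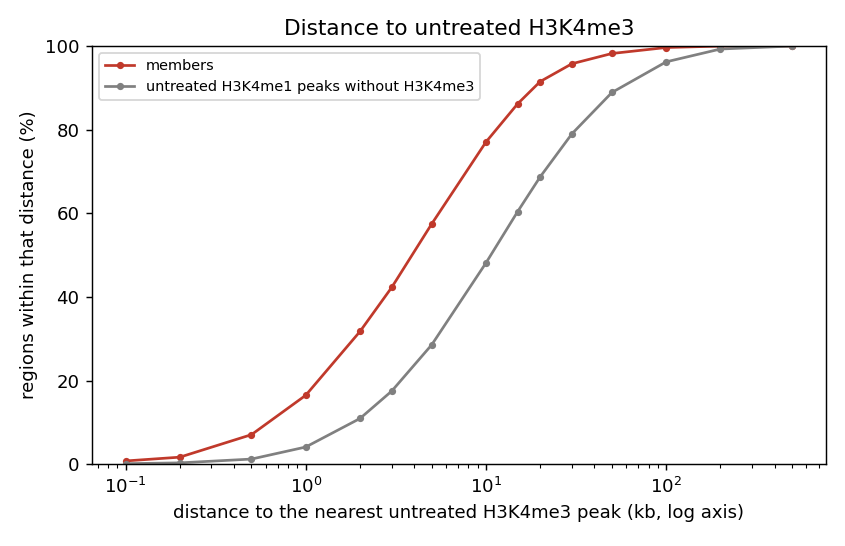
Share of regions (y axis) whose nearest untreated H3K4me3 peak lies within a given distance in kb (x axis, log scale), for members and for untreated H3K4me1 peaks without H3K4me3. At 5 kb the curves stand at 57.5% for members and 28.6% for the other peaks, and at 20 kb at 91.5% and 68.7%.

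The H3K4me1 peaks beneath members were wide and almost always carried H3K4me2 before treatment. The members lay on 2352 untreated H3K4me1 peaks with a median width of 6154 bp, of which 1061 also overlapped untreated H3K4me3, and 232 held 2 or more members. Untreated H3K4me2 overlapped 99.4% of them, against 38.3% of the 67180 untreated H3K4me1 peaks that had no H3K4me3 in either condition, whose median width was 1502 bp. Median H3K4me1 levels were 17.9 tags per M in the first set and 2.22 in the second. The part of width and level in the H3K4me2 shares was not tested. The 1291 peaks under members that had no untreated H3K4me3 were a median of 3976 bp wide, and 1278 of them overlapped untreated H3K4me2. Among untreated H3K4me1 peaks without untreated H3K4me3, the share holding a member was 0.0824% under 1 kb of width, 0.281% from 1 to 2 kb, 1.80% from 2 to 3 kb, 7.22% from 3 to 5 kb and 23.2% at 5 kb or more. A wider peak offers more places for an overlap, and that part was not tested.

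Untreated Mll1 peaks overlapped 84 members, or 3.16% (exact interval 2.53% to 3.90%), against 4.89% of the other 4-OHT peaks of at least 50 tags. The other peaks were mostly stronger. By class, it was 2.04% of members and 1.33% of kept peaks at 50 to 74 tags, 4.25% of members and 1.92% of kept peaks at 75 to 99, and 4.40% of members and 2.79% of kept peaks at 100 to under 150. It was 5.66% of members and 3.62% of kept peaks at 150 to under 200, and 9.46% of members (exact interval 3.89% to 18.5%) and 7.75% of kept peaks at 200 or more. The share was thus higher in members in all 5 classes, with exact intervals that did not overlap from 75 to 99 tags only. Without Elobl, Stmn2 and Fbxw4 it was 4.76% in members of 150 to under 200 tags and 6.94% in those of 200 or more, the last being below kept peaks. The Mll1 library held 0.285% of its tags in 4004 peaks, which held a median of 11 tags. Nearly all held at least 9 tags, so weaker Mll1 would be missing from this list. The parts of depth and of enrichment in this were not tested.

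Members were nearest to 1817 of 21887 protein-coding genes, or 8.30%, with 489 genes nearest to 2 or more. The nearest gene is a position and need not be a target. After Tns3 the most members were nearest to Etl4 (12), Msi2 (10), Itpk1 (9), Pitpnc1 (9), Zfp532 (8), Macf1 (8), Enah (7), Jarid2 (7) and Cdyl (7). Msi2 encodes an RNA-binding protein, Macf1 a linker of actin and microtubules, Enah a regulator of actin, and Cdyl a chromodomain corepressor. These are long genes of 109 to 900 kb, and 5 of the 7 members of Jarid2 and every member of Msi2 and Enah lay inside the gene.

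Genes of pluripotency often had a member nearest to them: 5 of 14 core genes, 7 of 16 naive genes and 5 of 14 formative and primed genes, against 8.30% of all genes. For genes nearest to an untreated H3K4me1 peak of at least 3 kb, the counts were 5 of 12, 7 of 15 and 5 of 12, against 16.6% of all 10432 such genes. None of their 35 members lay at a gene end, beside 4.89% of all members. Inside a gene lay 10 of the 35, beside 1976 of all 2656 members. An MM-401 H3K4me3 peak lay over 3 of the 35, beside 3.88% of all members. H3K4me2 was higher after 4-OHT at 28 of the 35, with a median log2 ratio of 0.42, while over all members 87.9% were higher and the median was 0.35. H3K4me1 was higher at 13 of the 35, with a median of -0.08, beside 40.1% and -0.05 over all members.

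Sox2, a core factor of the pluripotency network, was the nearest gene of 5 members from 2813 to 111338 bp away. The farthest, chr3:34763799-34765957, had 5.04 tags per M of H3K4me3 after 4-OHT and no other H3K4me3 peak. H3K4me2 there was 8.35 tags per M after 4-OHT and 6.37 after MM-401, against 4.84 in untreated cells. At the nearest one H3K4me2 was 9.15 after 4-OHT and 13.4 after MM-401, against 11.3 in untreated cells. The far member thus had more H3K4me2 after both treatments, and the near one less after 4-OHT.

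Among naive factors, Esrrb, an orphan nuclear receptor, held 3 members in its gene body with 5.98, 3.26 and 2.46 tags per M of H3K4me3 after 4-OHT. At the first, chr12:86516252-86519297, H3K4me2 was 9.44 after 4-OHT and 7.50 after MM-401, against 5.74 in untreated cells. Tbx3, a T-box factor, was 81002 bp from the list member with the most tags, which had 9.47 tags per M of H3K4me3 after 4-OHT. H3K4me2 there was 12.4 after 4-OHT and 11.8 after MM-401, against 9.84 in untreated cells. Klf5, a Krüppel-like factor, was nearest to 4 members, and at 2 of them H3K4me2 was slightly below untreated, at log2 ratios of -0.09 and -0.05. The zinc finger factor Prdm14 had a member with H3K4me3 after both treatments, 7.91 tags per M after 4-OHT and 3.71 after MM-401. The other pluripotency members with MM-401 H3K4me3 lay nearest to Sall4 (2.50 after 4-OHT and 1.84 after MM-401) and Fgf4 (3.07 after 4-OHT and 1.39 after MM-401). Esrrb and Tbx3 thus had no MM-401 H3K4me3 peak at any of their members.

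Among formative factors, Etv5, an ETS factor downstream of FGF signalling, held 2 members. The stronger had 6.59 tags per M of H3K4me3 after 4-OHT, and H3K4me2 of 14.0 after 4-OHT and 12.9 after MM-401, against 6.98 in untreated cells. Dnmt3a, a DNA methyltransferase, held 1 with 4.58 tags per M of H3K4me3 after 4-OHT. Its H3K4me2 was 11.1 after 4-OHT and 12.1 after MM-401, against 6.23 in untreated cells.

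Genes of the Polycomb complexes PRC1 and PRC2, which modify histones H2A and H3 at silent developmental genes, had a member at 8 of 14. The count among those nearest to a wide untreated H3K4me1 peak was 8 of 13. The shares are 57.1% and 61.5%, against 8.30% of all genes and 16.6% of all genes nearest to a wide peak. Jarid2, which recruits PRC2, was nearest to 7 members, 5 of them inside the gene. The one with most tags, chr13:44832276-44835410, had 6.74 tags per M of H3K4me3 after 4-OHT, with no MM-401 or untreated peak. H3K4me2 there was 10.6 after 4-OHT and 6.00 after MM-401, against 4.84 in untreated cells. The 5 members inside Jarid2 had the same 4-OHT H3K4me2 per bp and no 4-OHT H3K4me1 peak. H3K4me1 at them was 4.29 to 8.81 tags per M after MM-401 and 4.21 to 9.30 in untreated cells.

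Ezh2, the methyltransferase of PRC2, held 2 members with 2.61 and 2.04 tags per M of H3K4me3 after 4-OHT. H3K4me2 at the second was 5.78 after 4-OHT and 2.15 after MM-401, against 1.86 in untreated cells. Mtf2, a PRC2 accessory protein, held 2 with H3K4me2 of 10.6 and 10.7 after 4-OHT, no MM-401 peak, and 2.02 and 1.62 in untreated cells. Phc1, a PRC1 subunit, held 2 with no untreated H3K4me2 peak and with 14.5 and 7.60 tags per M after 4-OHT. Rnf2, the ubiquitin ligase of PRC1, held 3. At 2 of them the log2 ratio of H3K4me2 was 0.06, and at the third, chr1:151487321-151488665, it was 2.07, with 5.39 tags per M after 4-OHT and no MM-401 peak, against 1.29 in untreated cells. The members of Mtf2 and Rnf2 had no 4-OHT H3K4me1 peak. Tags of a peak are shared out by length, and the 3 Rnf2 members had the same 4-OHT H3K4me2 per bp, so their ratios differ through the untreated levels. The 2 members of Mtf2 likewise had the same 4-OHT H3K4me2 per bp, as had the 2 of Phc1. Whether H3K4me2 was higher at 1 such site than beside it was not tested.

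Of the enzymes that write or remove H3K4 methylation and their partners, 5 of 17 had a member, or 29.4% against 8.30% of all genes: Kdm1a, Kdm5b, Kdm6a, Dpy30 and Wdr5. Of those nearest to a wide H3K4me1 peak 4 of 14 had one, or 28.6% against 16.6%. Kdm5b, a demethylase of H3K4me3, held 3 members, of which chr1:134581649-134585291 had 7.16 tags per M of H3K4me3 after 4-OHT. H3K4me2 there was 20.7 after 4-OHT and 6.36 after MM-401, against 7.29 in untreated cells. The neighbouring Kdm5b member, chr1:134579535-134580997, had the same 4-OHT H3K4me2 per bp, and its log2 ratio of 4-OHT to untreated was 0.14. Dpy30, a subunit shared by all MLL and SET1 complexes, held 2 members with 5.53 and 2.46 tags per M of H3K4me3 after 4-OHT. Tet2, an oxidase of 5-methylcytosine, held 1 with 2.84, where H3K4me2 was 9.84 after 4-OHT and 5.04 after MM-401, against 3.46 in untreated cells. DNA methylation genes had a member at 3 of 10, or 30% against 8.30% of all genes. All 10 were nearest to a wide H3K4me1 peak, where the share over all genes was 16.6%. Dnmt3a, 1 of the 3, was also counted among the formative and primed genes. Over the chromatin lists together, H3K4me2 was higher after 4-OHT at 32 of 32 members with both, with a median log2 ratio of 0.55, beside 87.9% and 0.35 over all members. None of their 34 members had an MM-401 H3K4me3 peak, beside 3.88% of all members.

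Among signalling lists, members were nearest to 6 of 13 LIF and STAT3 genes, 7 of 15 FGF and MAPK genes, 6 of 15 Nodal and BMP genes and 5 of 15 Wnt genes. These are shares of 33.3% to 46.7%, against 8.30% of all genes. For genes nearest to a wide H3K4me1 peak the counts in the same 4 lists were 6 of 13, 7 of 13, 6 of 14 and 5 of 15, or 33.3% to 53.8% against 16.6%. Klf4, Tfcp2l1, Fgf4, Etv4 and Etv5 were counted both here and in the pluripotency lists. The signalling and pluripotency counts are thus not separate. Spry4, a feedback inhibitor of FGF signalling, was nearest to 2 members. The stronger had 6.36 tags per M of H3K4me3 after 4-OHT, and H3K4me2 of 13.2 after 4-OHT and 6.79 after MM-401, against 5.85 in untreated cells. Nodal, a ligand of the TGF-beta family, was 3858 bp from a member with 2.08 tags per M of H3K4me3 after 4-OHT, and H3K4me2 of 6.35 after 4-OHT and 8.20 after MM-401, against 2.48 in untreated cells. Over the signalling lists H3K4me2 was higher after 4-OHT at 25 of 32 members and its median log2 ratio was 0.30, both below the 87.9% and 0.35 of all members.

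Over the lists of other lineages together, members were nearest to 7 of 87 genes, which is near the 8.30% of all genes. Members were nearest to 1 of 12 primitive endoderm genes (Dab2), 1 of 11 trophectoderm genes (Tfap2c), 1 of 14 primitive streak and mesoderm genes (Snai1) and 1 of 14 neuroectoderm genes (Pax6). The counts were 2 of 12 for blood and endothelium (Gata2 and Pecam1), 1 of 10 for fibroblast and mesenchyme (Col3a1) and 0 of 14 for germline genes. The 8 members of these lists held at most 72 tags. None had an MM-401 H3K4me3 peak, beside 3.88% of all members. H3K4me2 was higher after 4-OHT at 6 of 8, beside 87.9% of all members with both. The shares of genes with a member ran by list from 0% to 16.7%, against 8.30% of all genes. For genes nearest to a wide H3K4me1 peak they ran from 0% to 28.6%, against 16.6%, over 5 to 12 genes a list. A difference between these lists and the pluripotency lists was not tested.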

How the data were processed

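Peak lists of 10 precipitated libraries were used, and 4 input libraries entered only as the controls of the authors' peak calls. Per the file headers, the authors called peaks in each library alone with MACS 1.4.2, after removal of duplicate tags and at a p cutoff of 1.0e-05; the submitters' processing notes name Bowtie2, SAMtools 1.5, MACS2 and mm10, and the headers were followed for the caller. The deposited counts are tags per peak without scaling. As the score, the authors' files give 10 times the negative log10 of the caller's p; a deposited ratio gives the fold over local background, and the deposited percent is the caller's false discovery rate. The width of a peak in bp is another value of the deposited lists.

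Overlaps were taken at 1 bp or more on the autosomes, X and Y (Python 3.11.15, numpy 2.4.6, pandas 2.3.3, scipy 1.17.1, matplotlib 3.10.9), and the interval code was tested on simulated data and against bedtools. The level of a mark at a region is the tags of the peaks over it, taken in proportion to the overlapping length and divided by M filtered tags, so regions under 1 wide peak share its density. A ratio needs a peak in both libraries. Kept peaks are 4-OHT H3K4me3 peaks of at least 50 tags that overlap untreated H3K4me3; those on untreated H3K4me1 number 34532. Genes are the 21887 protein-coding genes of RefSeq on GRCm38.p6, the annotation of mm10, and the distance runs to the nearer end; the table gives no strand. Starts with strand came from a table of 32851 windows. Shares have exact Clopper-Pearson and medians exact order-statistic intervals at 95%.

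Named genes are the nearest genes of the 25 members with the most tags, the 10 with the most MM-401 H3K4me3 and the 10 widest, of members nearest to the 219 genes of 17 lists, of the 10 genes with the most members, and examples at 50 and 49 tags. Rbpj, Zfp462, Fbxw4, Dido1 and Ctbp2 were added after their values were seen. The members and lists were chosen with earlier results of these data known. Sequence composition of whole members was not analysed here for want of a genome.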

Additional observations from a re-analysis of the deposited data

How the results depend on the processing

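Of 78 values recomputed under alternatives, 53 moved by less than their counting error or, for counts, by less than 1.5 times. These include every value with the score at least 100, with the false discovery rate at most 1%, with 50% of the member on untreated H3K4me1, with no untreated H3K4me3 within 1 kb, and, for members but not lost sites, with the 4-OHT list reduced to the number of untreated peaks. With at least 30 tags the rule found 5961 members: MM-401 H3K4me3 lay over 2.70%, Mll1 over 2.00% and untreated H3K4me3 within 5 kb of 53.9%, and the median log2 ratios of 4-OHT to untreated were 0.26 for H3K4me2 and -0.058 for H3K4me1. With at least 100 tags it found 521: 6.53%, 5.37%, 60.7%, 0.48 and -0.030 in the same order. Leaving out members within 5 kb of untreated H3K4me3 kept 1130, with 2.74% under MM-401 H3K4me3 and 3.81% at a gene end. Requiring 50% of a member to be covered gave 3.09% for MM-401 H3K4me3 and 0.0753% for Mll1, whose peaks are narrow. Counting all tags of each overlapping peak gave 0.80 for H3K4me2 and turned the sign for H3K4me1, to 0.32; peaks around members were wider after 4-OHT. Scaling to tags in peaks gave 0.23 and -0.13. A window of 5 kb put 23.1% at a gene end. Alternatives chosen after seeing the data were leaving out the 3 members with over 100 Mll1 tags or the 186 without 4-OHT H3K4me1, which moved none of the values over all members beyond its error, and the lost sites, which numbered 2000 at 30 tags, 1 at 100 tags and 500 with the reduced 4-OHT list. With 1 library per group, no library could be left out.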
